A study of Mus musculus with 16 samples.

Results

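The Id family comprises Id1, Id2, Id3 and Id4, the 4 mouse genes that encode the inhibitor of DNA binding proteins. The members were taken by name from the annotation of the array, which gives each of them 1 probe: 4 of 15967 named genes and 4 of 24606 probes. Their transcripts were measured in HPRT- E14TG2a mouse embryonic stem (ES) cells on 16 arrays, 1 per culture. All cultures, controls included, were first held for 6 h in KSR medium, a serum replacement medium to which no LIF is listed as added, with 10 µM SB-431542 (SB). This small molecule blocks the kinases of the Activin, Nodal and TGFbeta type I receptors. They then spent 18 h in the same medium with 25 ng/ml Activin (high signaling), with 10 µM SB (low signaling), with DMSO vehicle at a dilution of 1 in 5000 (endogenous signaling) or with nothing added (KSR). Each group has 4 cultures, at passages 20, 21, 23 and 24, numbered here as replicates 1 to 4. All come from 1 cell line, so that the spread between replicates is a spread between passages of that line.

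Id proteins carry a helix-loop-helix domain but lack the basic region that contacts DNA. They pair with the E proteins, the common partners of basic helix-loop-helix (bHLH) factors, and so keep these factors from binding their sites. Their genes are well-known immediate targets of BMP signaling, which runs through Smad1, Smad5 and Smad9, a branch of the TGFbeta family separate from the Smad2 and Smad3 branch of Nodal and Activin. In mouse ES cells, BMP4 acting through Id genes supports self-renewal together with LIF.

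The promoters of the members are shown because the treatments act on Smad signaling, and Smads recognise short DNA letters. RefSeq promoter sequences were found for 3 of the 4 members, and the 250 bases before the start site are given 5′ to 3′ on the strand of the gene (build GRCm38.p6). Capitals mark CAGAC, a form of the Smad binding element, and GGCGCC, a GC-rich element of BMP Smads, searched on both strands, and no match of one overlapped the other. Id2 lies at chr12:25096093-25096342 on the minus strand, Id3 at chr4:136143572-136143821 and Id4 at chr13:48260866-48261115, both on the plus strand.
Id2: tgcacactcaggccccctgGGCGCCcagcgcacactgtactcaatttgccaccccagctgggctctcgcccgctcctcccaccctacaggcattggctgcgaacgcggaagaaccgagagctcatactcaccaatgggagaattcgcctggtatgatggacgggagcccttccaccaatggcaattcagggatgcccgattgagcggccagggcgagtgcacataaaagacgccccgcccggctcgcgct
Id3: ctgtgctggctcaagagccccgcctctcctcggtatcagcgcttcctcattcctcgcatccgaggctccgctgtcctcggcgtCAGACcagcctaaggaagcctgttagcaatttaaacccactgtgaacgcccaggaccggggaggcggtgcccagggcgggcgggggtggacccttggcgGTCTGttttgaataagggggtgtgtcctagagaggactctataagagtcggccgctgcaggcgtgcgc
Id4: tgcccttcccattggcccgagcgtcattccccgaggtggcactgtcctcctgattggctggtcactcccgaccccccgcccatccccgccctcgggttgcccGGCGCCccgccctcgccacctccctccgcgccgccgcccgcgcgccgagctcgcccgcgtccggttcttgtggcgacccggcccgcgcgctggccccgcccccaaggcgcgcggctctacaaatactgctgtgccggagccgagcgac
Id2 and Id4 each held 1 GGCGCC, at 231 and 148 bases before the start, a motif present in 9.59% of 32851 promoters of this length. Id3 held CAGAC or its complement 2 times, at 167 and 68 bases before the start, and 42.2% of promoters held at least 1. The GC content was 62.8% for Id2 and for Id3 and 75.6% for Id4, against a median of 52.4% over all promoters. These matches describe letters and do not show binding, and they are set beside the levels below without a test.

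Across the 16 arrays the mean intensity lay between 486 (KSR, passage 21) and 760 (KSR, passage 24). Between 9816 and 10482 probes of an array were above background, meaning brighter on that array than 95% of 1191 probes for taste, vomeronasal and olfactory receptors. The treatments were checked on the Nodal targets Lefty1 and Lefty2, which encode feedback inhibitors of Nodal. With SB relative to DMSO, Lefty1, above background on 1 of 4 SB arrays, was at least 28.8-fold lower, and Lefty2, above background on 0 of 4, at least 8.62-fold, and both rose with Activin (log2 changes 1.29 and 1.56, limma adjusted p = 0.00192 and 5.11e-04). All 9 measured ES cell markers, among them Pou5f1, Nanog and Sox2, were above background on all 16 arrays. With SB 1 of the 9 fell relative to DMSO, Tdgf1 (Cripto, a co-receptor for Nodal), by 1.99-fold (adjusted p = 0.00123). Of the fibroblast markers, 7 of 9 were above background on none, Thy1 was on 12 and Acta2 on all 16. Acta2 stood at a log2 intensity of 9.38 with DMSO and 9.42 with SB.

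With SB the Id1 probe read 1005.1, 789.1, 1101.0 and 637.9 at passages 20, 21, 23 and 24 (deposited non-normalized intensity). Id1 restrains differentiation in several tissues and is among the best-known BMP-induced genes. With DMSO it read 153.8, 179.3, 188.9 and 165.9. In KSR medium it read 253.2, 154.6, 214.3 and 173.5. With Activin it read 153.1, 251.4, 143.6 and 145.2. All 4 SB values stood above the other 12, the lowest SB value at 637.9 and the highest of the others at 253.2, and the other 3 groups overlapped.

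The Id2 probe read 526.1, 774.3, 592.0 and 523.9 with SB at the same 4 passages. Id2 is known for its role in innate lymphoid cells. It read 188.7, 265.3, 175.9 and 246.4 with DMSO. It read 173.7, 231.4, 164.4 and 230.2 in KSR medium. The Activin cultures read 168.5, 326.6, 174.8 and 229.5. Again the 4 SB arrays stood apart, and the next value below them, 326.6, belonged to the Activin culture of passage 21. At passage 21 the probe was at its highest in every group.

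The Id3 probe read 589.2, 435.1, 612.9 and 481.6 with SB. Id3 acts in lymphocyte development and, together with Id1, in the growth of the forebrain and its vessels. The DMSO cultures read 262.0, 178.0, 252.1 and 234.8. The KSR cultures read 242.6, 160.2, 255.0 and 239.9. The Activin cultures read 204.5, 214.6, 204.9 and 175.2. The SB arrays lay above the other 12, and at passage 21 the probe was at its lowest with SB, with DMSO and in KSR medium, where Id2 was at its highest. After normalization between arrays the low point at passage 21 remained with DMSO (log2 intensity 8.08). In KSR medium passages 21 and 24 were both lowest, at 8.21. The lowest SB array was that of passage 24 (9.02, against 9.17 at passage 21).

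Id4, a gene of neural progenitors and of spermatogonial stem cells, was not above background on any array. Its probe lay between -10.9 and 26.8 over the 16 arrays, against background limits of 52.9 to 68.1. With SB it ranged from 10.5 to 26.8, and with DMSO from -10.7 to 23.1, so that the groups overlapped. Because both sides of each comparison were below background, no fold is given for Id4.

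**Figure D1:**
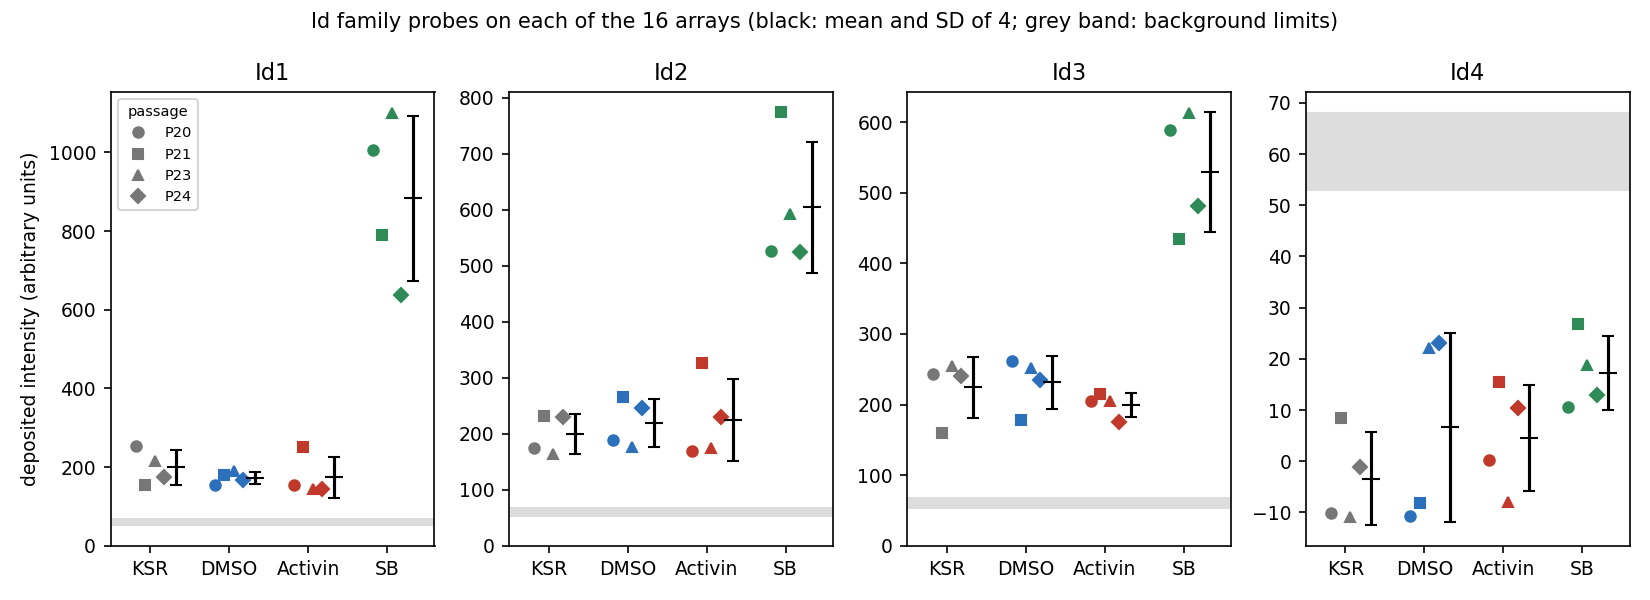
Deposited non-normalized intensity (arbitrary units) of the 1 probe of each Id gene on the 16 arrays, by treatment, with a marker shape for each passage. Black marks give the mean and SD of 4 cultures and the grey band the background limits of 52.9 to 68.1. The 4 SB arrays stand above the other 12 for Id1, Id2 and Id3, and Id4 stays under the band.

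The response to low signaling was compared with endogenous signaling through SB against DMSO. Id1, Id2 and Id3 rose, and they had the 3 highest log2 changes of all 24606 probes, in this order. Of the 4 members 3 were higher, where 0.0975% of all probes were called higher and 0.309% called in either direction. After normalization Id1 went from 7.995 ± 0.099 with DMSO to 9.92 ± 0.38 with SB (mean ± SD of log2 intensity, n = 4 in each group from here on). This is a 3.80-fold rise (log2 change 1.93, SE 0.15, 95% interval 1.62 to 2.23, limma adjusted p = 3.17e-08). Id2 went from 8.23 ± 0.23 to 9.43 ± 0.34, a 2.29-fold rise (log2 change 1.20, SE 0.17, interval 0.86 to 1.54, adjusted p = 2.94e-04). Id3 went from 8.29 ± 0.16 to 9.27 ± 0.21, a 1.96-fold rise (log2 change 0.97, SE 0.11, interval 0.75 to 1.20, adjusted p = 1.05e-05). Each of the 3 was higher with SB at 4 of 4 passages. Id4 stood at 6.44 ± 0.30 and 6.63 ± 0.12 (log2 change 0.19, interval -0.06 to 0.45, adjusted p = 0.971).

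The offset added before taking logs compresses such changes: as a ratio of mean deposited intensities, the log2 change was 2.36 for Id1, 1.46 for Id2 and 1.19 for Id3, each with an exact permutation p of 0.0286, the smallest that 4 against 4 arrays can give (two-sided). With the normalized values of the authors Id2 had a log2 change of 1.49 and did not pass (adjusted p = 0.0726), and it passed when passage was added to that fit as a replicate block (1.49, adjusted p = 6.73e-04, chosen after the values were seen). In bulk RNA a higher level per cell and more cells with the transcript cannot be told apart.

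**Figure D2:**
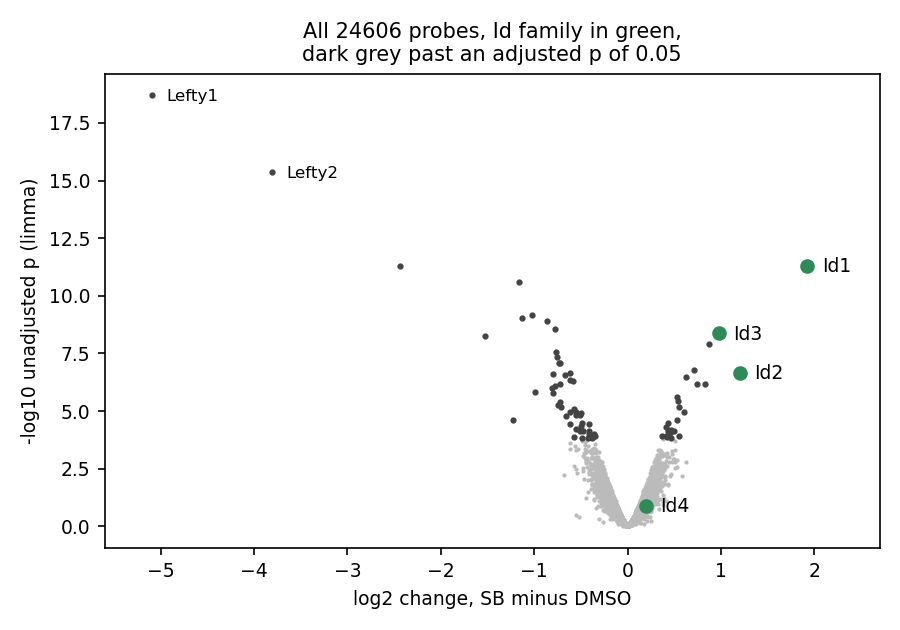
Log2 change of each of the 24606 probes in SB minus DMSO (x axis) against -log10 of the unadjusted limma p (y axis), 4 arrays per group. Dark grey points passed an adjusted p of 0.05, the Id family is in green, and Id1, Id2 and Id3 are the 3 points furthest to the right while Id4 lies among the mass of probes.

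KSR medium alone gave a second control with arrays of its own, although the SB arrays are shared. The paper describes SB as a DMSO stock diluted 1 in 5000, so that SB minus KSR includes the vehicle as well as SB. Against KSR, Id1 rose by 1.77 on the log2 scale (SE 0.15, 3.41-fold, adjusted p = 1.67e-07), Id2 by 1.26 (SE 0.17, 2.40-fold, adjusted p = 1.21e-04) and Id3 by 0.99 (SE 0.11, 1.99-fold, adjusted p = 9.77e-06). Id4, below background in both groups, had a log2 change of 0.335 (interval 0.081 to 0.589) and did not pass (limma adjusted p = 0.63). Over all probes 0.26% were called in this comparison. The separation of the SB arrays was shared by few probes: all 4 SB arrays lay above all 12 others for 3 of the 4 members and for 0.252% of all probes. The gap between the lowest SB array and the highest other array was 1.00 for Id1, 0.51 for Id2 and 0.56 for Id3 on the log2 scale. The vehicle itself gave no call in any member (DMSO minus KSR, log2 changes of -0.15 for Id1, 0.06 for Id2 and 0.02 for Id3, adjusted p = 1 for each). In that comparison limma called 0 of 24606 probes (0%), and 803 had an unadjusted p under 0.05.

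High signaling was compared with endogenous signaling through Activin against DMSO. No member passed the test, and 0.0203% of all probes did. Id1 stood at 7.95 ± 0.28 with Activin (log2 change -0.05, interval -0.35 to 0.26). Id2 stood at 8.19 ± 0.29 (-0.04, interval -0.38 to 0.30), and Id3 at 8.11 ± 0.17 (-0.19, interval -0.41 to 0.04), each with an adjusted p of 1. The intervals do not exclude a lower Id3 with Activin, which lay below DMSO at 3 of 4 passages, by 0.17, 0.29 and 0.36 at passages 20, 23 and 24. With passage as a replicate block the interval of Id3 was -0.35 to -0.02, and it did not pass over all probes (-0.19, adjusted p = 0.884). In the order of group means SB was highest for each of the 3 genes. Below it the values of Activin, DMSO and KSR overlapped for each gene. Id3 with Activin stood at 8.29, 8.16, 8.09 and 7.89 at the 4 passages, under the KSR array of the same passage each time (8.33, 8.21, 8.36 and 8.21), and this difference was not tested.

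Activin was then set against SB, the lowest signaling, a comparison in which 0.898% of all probes were called. No DMSO is listed for the Activin cultures, so that the vehicle of SB is part of this comparison too. Id1, Id2 and Id3 had the 3 lowest log2 changes of 24606 probes, with Activin below SB by 3.92-fold (log2 change -1.97, SE 0.15, adjusted p = 7.79e-09), 2.36-fold (-1.24, SE 0.17, adjusted p = 7.07e-05) and 2.24-fold (-1.16, SE 0.11, adjusted p = 2.46e-07). Whether the responses to Activin and SB are mirror images was tested with the contrast Activin plus SB minus 2 times DMSO, which is 0 when a gene moves as far one way as the other and which called 0.0122% of all probes. It was 1.88 for Id1 (SE 0.26, adjusted p = 0.00254), 1.16 for Id2 (SE 0.29, adjusted p = 1) and 0.79 for Id3 (SE 0.19, adjusted p = 0.724). With passage as a replicate block, where 5 of 24606 probes were called, Id2 passed as well (1.16, adjusted p = 0.00102), and Id3 did not (0.79, adjusted p = 0.0614). For Id1 the call was lost without replicate 1, 2 or 3, where the contrast was 1.72, 1.81 and 1.91 (adjusted p = 0.15, 0.0549 and 0.0565).

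**Figure D3:**
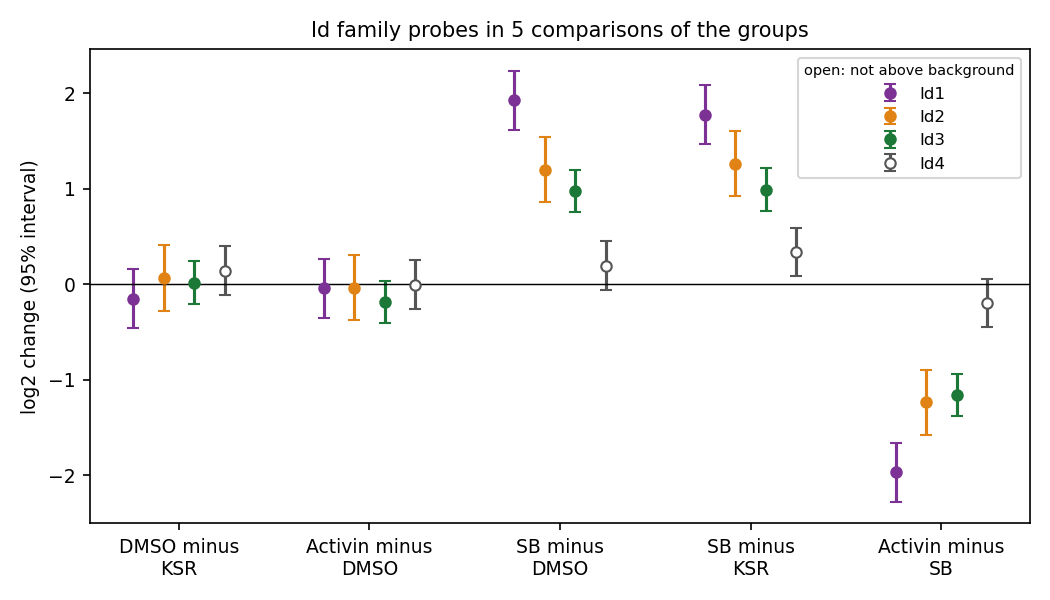
Log2 change (y axis) of the 4 Id probes in 5 comparisons of the groups (x axis), with 95% intervals from limma, 4 arrays per group. The intervals of Id1, Id2 and Id3 lie away from 0 wherever SB is compared and span 0 for DMSO minus KSR and Activin minus DMSO, and open symbols mark Id4, which was not above background.

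The sizes of the 3 rises were compared with each other through the difference of 2 probes within each array, SB against DMSO. The rise of Id1 exceeded that of Id2 by 0.73 on the log2 scale (exact permutation p = 0.0571) and that of Id3 by 0.95 (exact permutation p = 0.0286). Id2 exceeded Id3 by 0.22 (exact permutation p = 0.457). After adjustment over the 3 pairs none passed (0.0856, 0.0856 and 0.457). The smallest p that the design allows is 0.0286, and Id1 over Id3, which reached it, had 0.0856 after adjustment. The test thus could not call 1 pair alone, and its permutations did not keep the passages paired. Each difference had the same sign at 4 of 4 passages, from 0.45 to 1.04 for Id1 over Id2, from 0.71 to 1.24 for Id1 over Id3 and from 0.05 to 0.34 for Id2 over Id3.

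Passage gave the members a second axis of variation. The log2 rise with SB over DMSO at passages 20, 21, 23 and 24 was 2.27, 1.85, 2.10 and 1.48 for Id1. It was 1.23, 1.40, 1.34 and 0.81 for Id2, and 1.04, 1.09, 1.01 and 0.77 for Id3. For all 3 genes it was smallest at passage 24, with 1 array per treatment and passage. The difference of the SB response between passages 23 and 24 and passages 20 and 21 was -0.27 (SE 0.27) for Id1, -0.24 (SE 0.31) for Id2 and -0.18 (SE 0.22) for Id3, with an adjusted p of 1 for each. In that test limma called 0 of 24606 probes (0%), and 824 had an unadjusted p under 0.05.

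The level of Id2 differed between passages, taken over the 4 treatments together. A difference between passages was called for Id2 (F-test in limma with treatment in the model, adjusted p = 5.51e-04) and not for Id1 (0.067) or Id3 (0.0619), where 7.17% of all probes were called. At passage 21 Id2 stood 1.45-fold above the mean of the other passages (log2 difference 0.54, SE 0.07, adjusted p = 1.58e-04), in a contrast chosen after its values were seen, which called 2.25% of all probes. The same contrast gave 0.17 for Id1 (adjusted p = 0.397) and -0.11 for Id3 (adjusted p = 0.471). Later passages (23 and 24) were lower in Id2 than earlier ones (20 and 21) by 1.22-fold (log2 difference -0.28, SE 0.06, adjusted p = 0.011), in a comparison that called 3.8% of all probes. Without replicate 2, the cultures of passage 21, this difference was -0.02 (adjusted p = 0.916), and without replicate 3 it was -0.21 (adjusted p = 0.155). For Id1 the difference was -0.25 (adjusted p = 0.0934), which passed without replicate 3 (-0.40, adjusted p = 0.0243), and for Id3 it was -0.08 (adjusted p = 0.503).

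**Figure D4:**
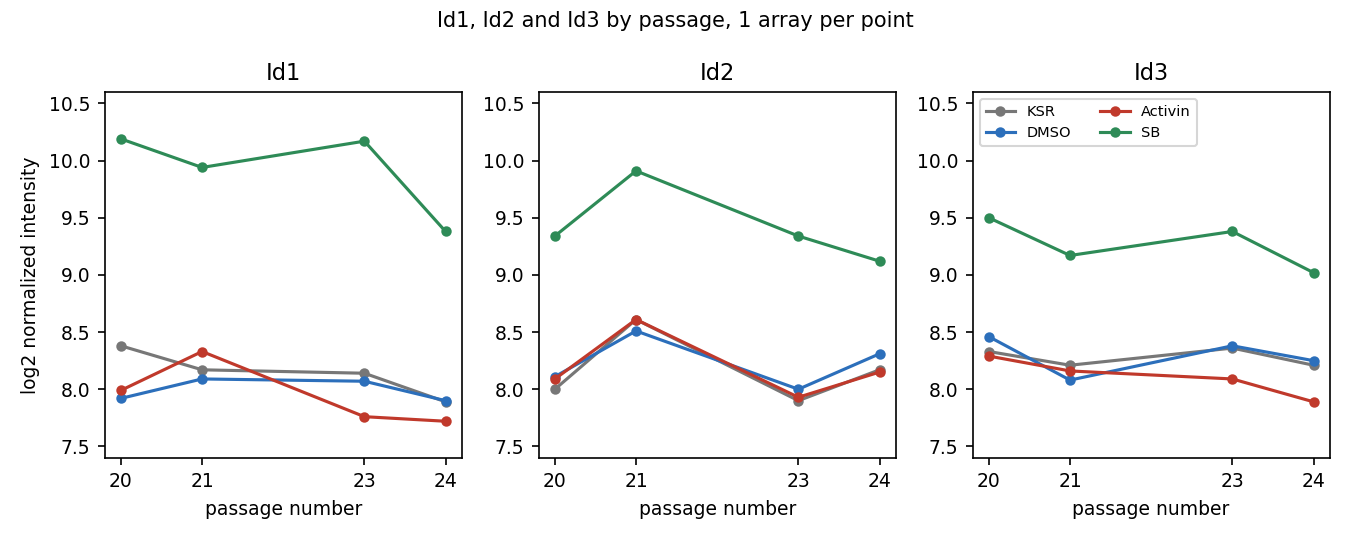
Normalized log2 intensity (y axis) of Id1, Id2 and Id3 against passage number (x axis), 1 array per point and 1 line per treatment. The SB line lies above the others at every passage, and all 4 lines of Id2 peak at passage 21.

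Over the 16 arrays the 3 detected members followed each other, with r = 0.962 for Id1 and Id3, 0.904 for Id1 and Id2 and 0.820 for Id2 and Id3. These values describe 16 arrays that share 4 treatments and 4 passages. Among 7772 genes above background on 4 or more arrays, Id3 was the gene most like Id1 and Id1 the gene most like Id3. After the treatment means were removed, r was 0.613 for Id1 and Id3, 0.355 for Id1 and Id2 and -0.247 for Id2 and Id3. Over the 12 arrays without SB it was 0.398, 0.309 and -0.315. Id2 and Id3 thus rose together across treatments but had a negative r within them.

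The genes outside the family that were most like the members were taken by Pearson correlation over the same 16 arrays. For Id1 they were Gata3 (r = 0.919), a GATA factor of trophectoderm and T cells, the zinc transporter Slc30a2 (0.905), the TNF receptor family member Tnfrsf19 (0.890), the adhesion molecule Ceacam1 (0.884) and the matrix protein Spon2 (0.878). For Id3 they were Slc30a2 (0.929), Gata3 (0.928), Tnfrsf19 (0.926), the MAP kinase phosphatase Dusp4 (0.922) and the complement inhibitor Serping1 (0.898), so that Id1 and Id3 shared 3 of 5. For Id2 they were the Krüppel-like factor Klf2 (0.914), the nuclear receptor Nr6a1 (0.895), the small heat shock protein Hspb8 (0.894), the AP-2 factor Tfap2c (0.889) and Prss35 (0.880), and 0 of 5 were shared with either other member. Gata3 entered this ranking only through the SB group, being above background on 4 SB arrays and on none of the other 12, so that its place for Id1 and Id3 follows in part from the filter. The same holds for Spon2 and its place for Id1. It was above background on 4 SB arrays and on 1 array of each other group, too few to enter without SB.

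The most opposite genes were Lefty1 (r = -0.941), Ubr7 (-0.934) and Duxbl1 (-0.927) for Id1. For Id3 they were Lefty1 (-0.962), Lefty2 (-0.953) and Il17rd (-0.946), a feedback inhibitor of FGF signaling. For Id2 they were the homeobox gene Cphx1 (-0.923), the zinc finger factor Bcl11b (-0.909) and the oocyte gene Ooep (-0.899). After the treatment means were removed, 0 of the 5 genes remained among the 5 most like Id1, Id2 or Id3.

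Of the 3 E protein genes 0 passed in SB minus DMSO, in Activin minus DMSO or in Activin minus SB, and the log2 changes in SB minus DMSO were -0.14 for Tcf4 and -0.05 for Tcf3. Of 21 measured tissue-restricted bHLH factors, such as myogenic and neurogenic ones, 0 passed in any of the 3 comparisons in the fit without passage, and only 4 exceeded background on at least 4 arrays. Among them, Msc (musculin), a repressor of the muscle program, had a log2 change of 0.31 with SB relative to DMSO (adjusted p = 0.694). With passage as a replicate block it was the 1 gene of this list that passed, lower with Activin than with SB (log2 change -0.48, adjusted p = 0.0657 without the block and 6.51e-04 with it, where Id2 had -1.24). The block fit called 438 of 24606 probes in Activin minus SB. Tcf15, a bHLH factor that Id proteins restrain in mouse ES cells, had -0.28 in SB minus DMSO (adjusted p = 0.689). The Hes and Hey factors, bHLH factors of which several but not all act downstream of Notch, had 0 of 9 past the test in SB minus DMSO and 1 of 9 in Activin minus SB. That gene was Hes6, 1.33-fold higher with Activin than with SB (log2 change 0.41, adjusted p = 0.032). With the block Hey1 passed as well (0.51, adjusted p = 0.0875 and 0.00799), a gene above background on 1 of 4 Activin and 0 of 4 SB arrays.

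Of the components of BMP signaling upstream of the Id genes, 0 of 13 ligand genes, 0 of 8 receptor genes, 0 of 2 measured Smads and 0 of 20 inhibitors passed in SB minus DMSO. The median log2 changes of these lists were 0.02, -0.01, 0.04 and 0.01, against -0.002 over all genes. Only 2 of the ligand genes, 5 of the receptor genes, 2 of the Smads and 8 of the inhibitors exceeded background on at least 4 arrays, and over these the medians were 0.23, -0.02, 0.04 and -0.02. In Activin minus SB, 0 of the 20 inhibitors passed, and 3 did with passage as a replicate block, all higher with Activin: Fstl1 (log2 change 0.42), Gpc3 (0.42) and Ski (0.36), where Id2 had -1.24. The block fit called 438 of 24606 probes in this comparison. Bmp4, the ligand gene with the widest change, stood at 8.96 ± 0.20 with DMSO, 9.43 ± 0.26 with SB and 8.77 ± 0.12 with Activin. It was 1.57-fold lower with Activin than with SB (log2 change -0.65, adjusted p = 0.00375). Its change in SB minus DMSO, 0.47, did not pass (adjusted p = 0.149) but passed with passage as a replicate block (adjusted p = 0.0071, beside 1.20 and 2.35e-08 for Id2 in that fit). Among receptors Eng had a log2 change of -0.14 and Acvr2b of 0.07, among Smads Smad4 had 0.10 and Smad1 -0.01, and among inhibitors the Smad corepressor gene Ski had -0.24 and the glypican gene Gpc3 -0.23 (adjusted p = 0.814 or higher for each). The receptor genes whose products SB blocks had 0 of 3 past the test, with -0.03 for Tgfbr1 and -0.02 for Acvr1b.

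Other genes known as BMP targets moved in part. In SB minus DMSO 2 of 16 measured targets rose and 0 fell, and the list had a median log2 change of 0.06, or 0.26 over the 8 that exceeded background on at least 4 arrays. Gata2 and Gata3 are among these 8 only through the SB arrays, so that the 0.26 follows in part from the filter. Tfap2c, a regulator of trophectoderm and germ cells, rose 1.52-fold, from 11.18 ± 0.16 to 11.79 ± 0.11 (log2 change 0.61, adjusted p = 0.0067). Gata3 rose by 0.55 on the log2 scale (adjusted p = 0.00431). It was above background on 4 of 4 SB arrays and on 0 of 4 DMSO arrays, which makes it at least 1.22-fold higher, taking the dim side at the lowest level above background on each array. In Activin minus SB 4 of 16 targets were lower, Bmp4, Gata2, Gata3 and Tfap2c, and in Activin minus DMSO 0 of 16 passed. Counted with passage as a replicate block, 3 of 16 passed in SB minus DMSO, with Bmp4 added. In Activin minus SB 6 of 16 passed with the block (Id2, -1.24 in that fit), with Hey1 and Dlx3 added. Dlx3 was lower with Activin than with SB (log2 change -0.33), whereas Hey1 was higher (0.51), opposite to Id2. Over all 24606 probes the block fit called 150 in SB minus DMSO and 438 in Activin minus SB. Gata2, Gata3 and Dlx3 were above background on SB arrays only. The genes named for the block, such as Fstl1, Hey1 and Dlx3, were chosen after their values were seen. These lists were chosen with results of these data known, so that their counts describe the data and are no independent evidence of a direction.

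**Figure D5:**
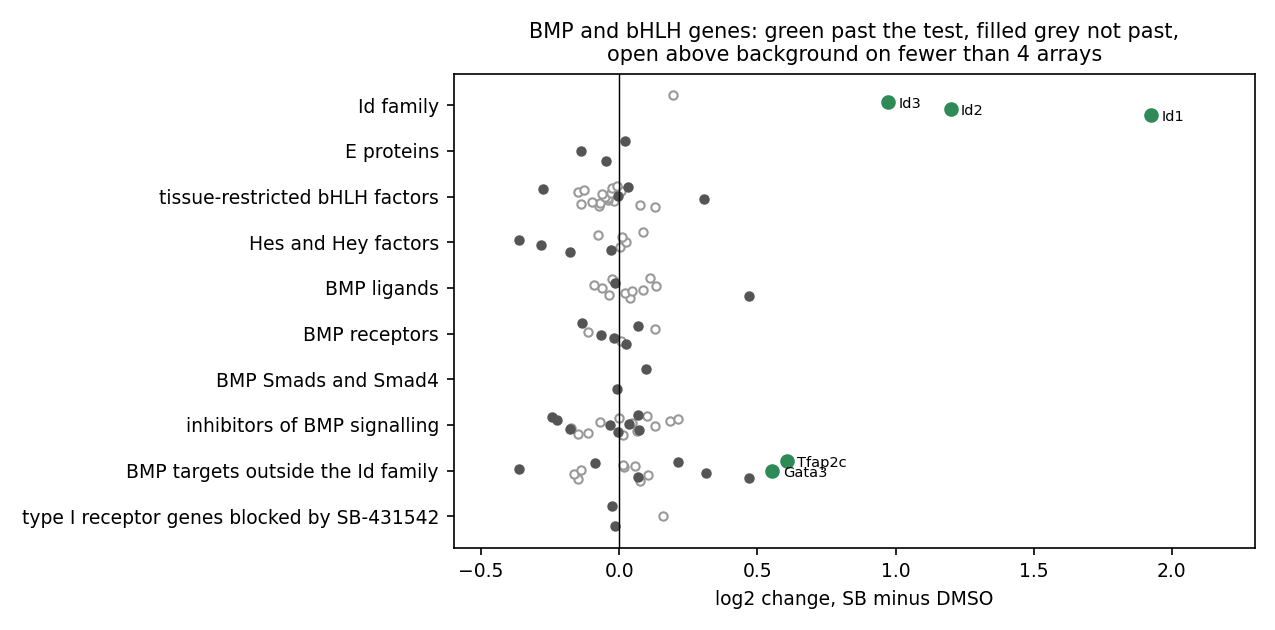
Log2 change in SB minus DMSO (x axis) of each measured gene of the Id, bHLH and BMP lists and of the receptors that SB blocks, by list (y axis), 4 arrays per group. The Nodal targets and the cell type markers are not shown. Id1, Id2 and Id3 lie at 0.97 or higher, Tfap2c and Gata3 at 0.61 and 0.55, and 0 genes of the other lists shown passed (filled grey, or open where above background on fewer than 4 arrays).

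Of 10 trophectoderm markers 2 rose with SB relative to DMSO, the Gata3 and Tfap2c already given. The remaining 8 were not called, and their changes went both ways. Krt8 stood at -0.22 and Eomes at -0.11 on the log2 scale, but Krt7 at 0.155 and Krt18 at 0.087. Taken over all 10 markers, the median was 0.08. The summed intensity of the 10 was 3932 to 4371 on the SB arrays and 2181 to 3436 on the other 12. This sum follows mostly Tfap2c, the brightest of the 10 (log2 mean 11.79 with SB and 11.18 with DMSO). Krt8, the next brightest, stood at 8.55 with SB and 8.77 with DMSO. The separation of the sums is therefore no result about the list apart from the rise of Tfap2c. Of the 10, 3 (Elf5, Hand1 and Ascl2) were above background on no array, and Cdx2, above background on all 16, had a log2 change of 0.07 with SB (adjusted p = 0.997). The summed primitive endoderm markers ranged from 549 to 2569 with SB and from 384 to 2253 in the other groups, and overlapped. Dab2, one of them, varied widely between the passages of each group (SD of 1.31 to 1.34 on the log2 scale). Pdgfra, another, passed in Activin minus SB only with passage as a replicate block, which called 438 of 24606 probes there. It was lower with Activin (log2 change -0.33, adjusted p = 0.763 without the block and 0.0481 with it). The part of trophectoderm or primitive endoderm cells in the Id levels was not tested.

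The nearest measured genes on the 2 sides of each Id gene gave no call. They were H13 and Cox4i2 for Id1, Mboat2 and Rnf144a for Id2, Rpl11 and E2f2 for Id3, and Rnf144b and Zfp169 for Id4. Their distances ran from 16.5 kb (Cox4i2) to 1210.7 kb (Rnf144a), and Rnf144b lay 1013.1 kb from Id4, so that not all are close neighbours. Cox4i2, Rnf144b and Zfp169, and so both neighbours of Id4, were above background on no array and cannot show a change. Over the other 5 the log2 changes in SB minus DMSO ran from -0.12 (Mboat2) to 0.16 (Rnf144a), and 0 passed (adjusted p = 0.971 or higher).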

How the data were processed

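Total RNA of 16 cultures was labelled with biotin and hybridised to Illumina MouseRef-8 BeadChips. Of the 2 deposited tables, the non-normalized intensity is the value after the authors subtracted background in BeadStudio (version not given in the sources used here), with no scaling between arrays. The other holds intensity that the authors scaled with a cross-correlation method, with values under 40 set to 40, and it served as an alternative. All columns of both tables were mapped to samples.

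From the non-normalized intensities, log2 values were made with normexp (saddle-point estimation, offset 50) and quantile normalization in limma 3.58.1 (R 4.3.3). The offset draws dim values together, so that changes of dim probes are compressed. The 4 groups were fitted together in 1 linear model over 16 arrays (lmFit and eBayes, two-sided, 12 residual degrees of freedom), with Benjamini-Hochberg adjustment over all 24606 probes and a threshold of 0.05. The fit was tested on simulated data. Passage contrasts had treatment in the model. Differences between members were tested by exact permutation. The number of arrays limits the precision. The median residual SD was 0.138 on the log2 scale.

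Labels give the replicates as separate cultures with a passage number shared across groups. After the removal of group means, arrays of the same number correlated with r of 0.0977 to 0.325 (24 pairs) and arrays of different numbers with r of -0.238 to 0.0995 (72 pairs). The numbers were therefore taken to pair the samples, from the passage in the labels, and passage as a replicate block is given beside a call of a named gene or list that it changes, as for Id2 in the contrast Activin plus SB minus 2 times DMSO (1.16).

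Symbols came from the platform annotation, updated by gene identifier. Of the probes, 20980 had 1 symbol, 1 had several and 3625 had none. A gene with several probes was represented by the brightest. Named genes were every Id probe; the listed genes past the threshold with a treatment, or otherwise the 2 largest changes of a list among genes above background on 4 or more arrays; the 5 most like and 3 most opposite genes; and the nearest neighbours. List members without a probe (Smad5, Smad9, Smad6 and others) were not analysed here. The members and lists were chosen with earlier results of these data known. Alternatives were another normalization, offset, floor, filter, trend, set of arrays or block, and leaving out replicates or arrays.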

Additional observations from a re-analysis of the deposited data

How the results depend on the processing

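The rises of Id1 and Id3 in SB minus DMSO kept their direction and stayed past the threshold in 22 of 22 alternatives each, and that of Id2 in 20 of 22 (log2 changes 1.04 to 1.49). Id2 missed it with the authors' normalized values (1.49, adjusted p = 0.0726) and with intensities under 16 set to 16 (1.48, adjusted p = 0.067). The 22 include the exact permutation test, whose p of 0.0286 is not adjusted over probes and which is also counted for SB minus KSR. They also include the authors' values with passage as a replicate block, a fit chosen after the values were seen. In SB minus KSR and Activin minus SB the calls of the 3 genes held in all alternatives run, and in Activin minus DMSO and DMSO minus KSR none was gained. In Activin plus SB minus 2 times DMSO, Id1 missed with the authors' values (2.29, adjusted p = 0.522) and with the floor of 16 (2.27, adjusted p = 0.384), Id2 passed with passage as a replicate block (1.16), and Id3 was 0.96 with the authors' values. Passage as a block changed no other call of a member. The cause of these shifts was not tested.

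For passages 23 and 24 minus 20 and 21, Id2 missed with the authors' values (-0.37, adjusted p = 0.0533) and median scaling (-0.15, adjusted p = 0.103), and Id3 was 0.047 with median scaling. Without 1 replicate number or array, Id1 lay between -0.40 and -0.093, Id2 between -0.55 and -0.022 and Id3 between -0.20 and 0.04 in that comparison.

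The difference of the SB response between late and early passages lay between -0.67 and 0.12 for Id1, between -0.52 and 0.045 for Id2 and between -0.36 and 0.012 for Id3 when 1 replicate or array was left out, and its sign is not settled for any of them. Leaving out 1 replicate or array, Activin plus SB minus 2 times DMSO lay between 1.72 and 2.07 for Id1.

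The number of probes called over the whole array moved more. SB minus DMSO called 76, and 38 with the authors' values, 46 with an offset of 16, 37 with the floor of 16, 49 with only the compared arrays, 150 with the replicate block and 35 to 71 without 1 replicate or array. Activin minus DMSO called 5, and 3, 2, 1 and 9 with the authors' values, offset 16, floor 16 and block, and 0 to 5 without 1 replicate or array (0 without replicate 1). SB minus KSR called 64, and 42 with median scaling, 41 with floor 16, 159 with the block and 27 to 66 without 1 replicate or array. Activin minus SB called 221, and 123 with the authors' values, 129 with floor 16, 438 with the block and 115 to 233 without 1 replicate or array. Activin plus SB minus 2 times DMSO called 3, and 1 with the authors' values, 5 with the block and 1 to 4 without 1 replicate or array. Signal over background limits Id4, which stayed below background on all 16 arrays.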
